A study of Mus musculus with 15 samples.

Results

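The highest and the lowest treated dose of an antibody against VEGF-A, 200 µg and 50 µg per dose, were compared in GL261 brain tumors. The members were the 3 tumor libraries titled 200 µg and the 3 titled 50 µg, which makes 6 of the 15 libraries of the series. RNA sequencing (RNA-seq) measured transcript levels in whole tumor tissue. GL261 is a mouse glioma line, here grown in the brains of C57BL/6 mice with their own immune system. The antibody, B20.4.1.1, was first given on day 10 after implantation and then every 3 days to the endpoint. The 6 libraries of the other tumor groups, 3 at 100 µg and 3 from untreated tumors, were used for the estimate of the spread and to place the 2 doses. All 4 groups share the strain and the tumor line, and no group in the labels received a control antibody. The labels speak of individual samples and do not say whether each came from its own mouse, so a p-value reflects only how far these samples spread. Ages, sexes and the day of the endpoint were not given in the labels. In whole tissue, fewer cells of a type and less RNA per cell cannot be told apart.

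VEGF-A is the growth factor that makes blood vessels sprout and leak, acting through the receptors VEGFR2 (gene Kdr) and VEGFR1 (Flt1) and the co-receptors Nrp1 and Nrp2 on endothelial cells. Gliomas secrete much of it, and antibodies that capture it prune and normalize tumor vessels. Blockade leaves the messenger RNA in place, so Vegfa transcript levels are no check of the dose. Tumors under VEGF blockade are known to use other vessel growth factors, to remodel their matrix and to live with less oxygen and fewer nutrients, and the gene lists used here were drawn from those topics.

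Some labels of the replicates numbered 3 disagreed with their titles. The tag that names the agent says 100 µg for 50 µg replicate 3, 200 µg for 100 µg replicate 3 and 50 µg for untreated replicate 3, and it is missing for 200 µg replicate 3. Titles set the groups here. Regrouping by the tag, and leaving out the libraries whose tag disagreed, are given beside the counts. Antibody protein was not measured, and no transcript in the data can settle the dose of a library.

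The libraries of the 2 doses also differed in how complete their transcript assemblies were. The sequence behind the assemblies was estimated at 10.1, 13.2 and 9.45 gigabases at 200 µg and at 8.42, 7.15 and 8.04 gigabases at 50 µg. Of 12970 genes, 5.27, 5.41 and 5.78% were listed in several pieces at 200 µg, against 13.4, 13.1 and 24.8% at 50 µg. The groups did not overlap in either measure. Among the other tumors, pieces took 11.3, 13.6 and 4.62% of genes at 100 µg and 12.9 to 14.5% in untreated tumors, so 100 µg replicate 3 lay with the 200 µg libraries. The first principal component, with 24.04% of the variance, drew the same line. It placed the 200 µg libraries at 46.9, 48.9 and 40.4 and 100 µg replicate 3 at 41.3, against −28.1, −31.5 and 12.1 for the 50 µg libraries, and 50 µg replicate 3 stood alone on the second component at −90.6. Replicate 3 at 50 µg correlated with its group mates at 0.827 and 0.832, below the 0.903 to 0.920 among the 200 µg libraries, and 100 µg replicate 3 with its own at 0.829 and 0.840. Between 200 and 50 µg, dose and assembly state cannot be told apart, and among the treated tumors only the 100 µg group holds both states.

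**Figure D1:**
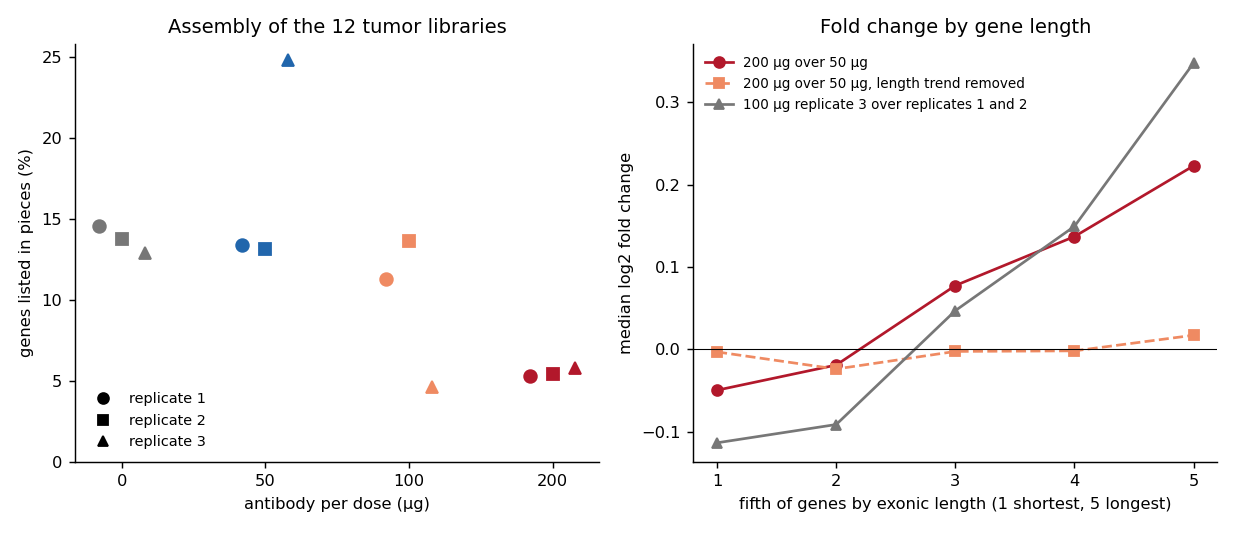
Share of genes listed in several pieces in each tumor library (percent, left), and median log2 fold changes in 5 equal groups of genes by exonic length (right), for 200 over 50 µg with and without the length trend and for 100 µg replicate 3 over replicates 1 and 2. The 200 µg libraries sit between 5.27 and 5.78% and the 50 µg libraries between 13.1 and 24.8%, and the median runs from −0.05 in the shortest group to 0.22 in the longest.

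The assembly difference came with a difference by gene length. The median log2 fold change of 200 over 50 µg was −0.05, −0.02, 0.08, 0.14 and 0.22 in 5 equal groups of genes ordered by rising exonic length. In the same groups, 100 µg replicate 3 over the other 100 µg replicates gave −0.11, −0.09, 0.05, 0.15 and 0.35, the same order, in a contrast within 1 dose by title. By agent tag that library is a 200 µg one, and the contrast would then be between doses. Genes called higher made up 0.450% of the shortest group and 1.32% of the longest, and genes called lower 0.415% of the shortest and none of the longest. Short genes were thus listed lower, and long genes higher, in libraries with few genes in pieces. The part of length in each result was not tested gene by gene, and values with the length trend removed are given where they move a list.

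Of 14442 genes tested, 173 differed between 200 and 50 µg, which is 1.20% of them. The test was limma on log2(FPKM + 1) over the 12 tumor libraries, where FPKM is fragments per kilobase of transcript, scaled to the mapped fragments of a library, and a gene was called at a Benjamini-Hochberg adjusted p under 0.05. Higher at 200 µg were 143 genes (0.990%), and 30 were lower (0.208%). These are the shares to hold beside the counts of called list members below. At an unadjusted p under 0.05 there were 2111 higher and 1002 lower genes, or 14.6 and 6.94%. All 3 libraries at 200 µg lay above all 3 at 50 µg for 2916 genes (20.2%) and below them for 1346 (9.32%). Over all tested genes the median log2 fold change was 0.09. It was −0.01 once libraries were scaled by median of ratios, so a list median near 0.09 is no departure from the whole.

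**Figure D2:**
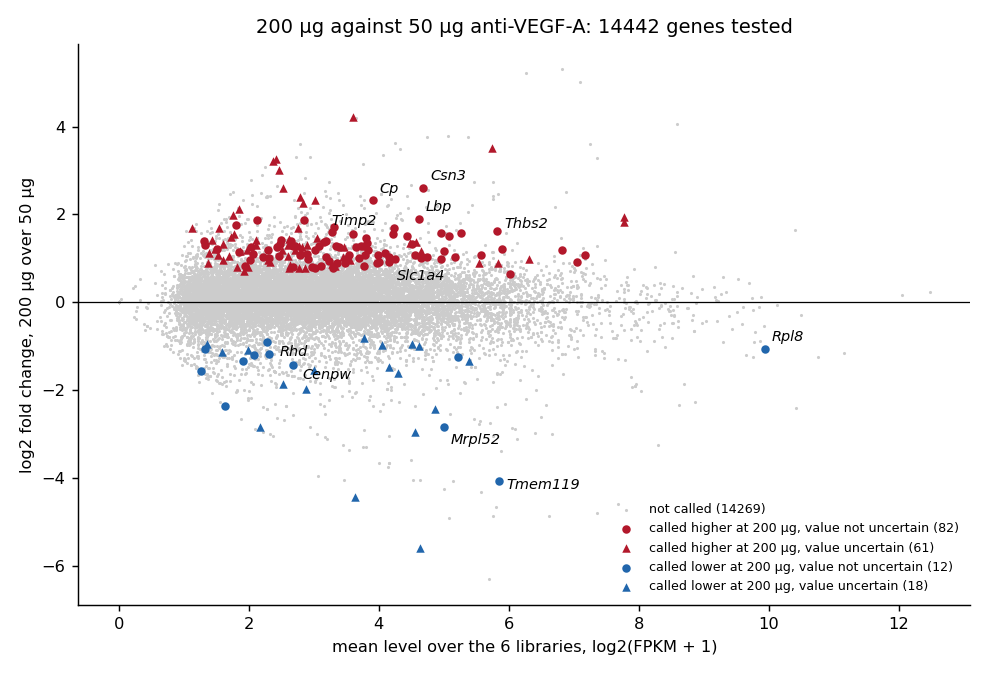
Log2 fold change of 200 over 50 µg against mean level in the 6 libraries, log2(FPKM + 1), for the 14442 tested genes, with the 143 genes called higher in red and the 30 called lower in blue, circles for certain and triangles for uncertain values. Of the labelled genes Csn3 is the highest, at 2.61, and Tmem119 the lowest, at −4.08.

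Few of these calls stood on all libraries. All 173 genes kept their direction in every setting in which they could be tested, but only 5 were called whichever of the 12 libraries was left out: Cp, Timp2, Cfap43, Gm12191 and Pgk1-ps1. The last 3 were uncertain genes, chosen for mention after their values were seen. The count fell to 7 without 200 µg replicate 1 and to 9 without 200 µg replicate 2, and it was 38 and 37 without 50 µg replicate 1 and 2. It was 57, 55 and 65 without untreated replicate 1, 2 and 3 and 99 without 100 µg replicate 1. Without 50 µg replicate 3, the library that stood apart, 180 genes were called, 94 of them among the 173. A call near the threshold was thus often lost without several of the libraries in turn, and the fit given beside a gene is the one with the highest or next highest adjusted p. With the share of genes in pieces as a covariate 8 genes were called, of which 2 were among the 173. With libraries of few pieces as a batch term there were 29, of which 5 were among the 173. The 100 µg group alone holds both states, so the batch term rests on 100 µg replicate 3 against its group mates. By agent tag that library is a 200 µg one, and the term would then rest on a contrast between doses. This holds for every value given below with the batch term. By agent tag the count was 2115, holding 143 of the 173, and 1336, holding 171, without the libraries whose tag disagreed. Without 100 µg replicate 3 it was 1031, holding all 173.

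The 100 µg and untreated tumors show where the 2 doses stand. Among genes called higher at 200 µg, untreated tumors lay at a median position of 0.017 on a scale where 50 µg is 0 and 200 µg is 1, and among genes called lower at 0.087, against 0.140 over all tested genes. In a median of signed positions, genes on either side of 50 µg cancel, and genes picked for a wide gap between the doses have positions drawn toward 50 µg. These medians are therefore a description, and how near the 50 µg tumors were to untreated ones was not tested. Untreated libraries shared the assembly state of the 50 µg ones, with 12.9 to 14.5% of genes in pieces against 13.1 to 24.8%. Dose and assembly state cannot be told apart in these positions, nor where a gene at 50 µg is said below to lie with untreated tumors. The mean at 100 µg fell between the 2 doses for 133 of the 143 higher genes (93.0%) and 24 of the 30 lower ones (80.0%), against 46.5% of all tested genes. Genes picked for a wide gap leave more room for a value in between, so those shares are a description and not a sign of a graded response. The 2 doses were chosen as the ends of the range, and the positions rest on libraries that also entered the estimate of the spread.

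Among called genes whose value was not uncertain the smallest adjusted p belonged to Cp, which encodes ceruloplasmin, the copper enzyme that oxidizes iron as it leaves cells (chr3:19957054-20009145, mm10). Cp was at 26.4, 23.3 and 22.2 FPKM at 200 µg and at 3.99, 4.06 and 3.85 FPKM at 50 µg. Every 200 µg library was over every 50 µg library by a wide margin, and the 50 µg tumors resembled untreated ones, which had 3.28, 2.39 and 5.01 FPKM. At 100 µg the level was in between, 13.7, 10.9 and 16.7 FPKM. The log2 fold change of 200 over 50 µg was 2.33 (SE 0.22, adjusted p = 0.00301), and the adjusted p with any single library left out was at most 0.01995. With the share of pieces as a covariate it was 0.0877, and with the batch term 0.117.

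Timp2, an inhibitor of matrix metalloproteases, followed (chr11:118301069-118355740). It was at 23.2, 26.5 and 30.8 FPKM at 200 µg and at 7.32, 9.20 and 8.74 FPKM at 50 µg. The groups were far apart, and untreated tumors, at 9.89, 10.7 and 9.37 FPKM, lay next to the 50 µg ones. The 100 µg libraries had 23.4, 20.8 and 18.7 FPKM, close under the 200 µg level. The log2 fold change was 1.56 (SE 0.16, adjusted p = 0.00418, at most 0.0255 with a library left out). It kept its call with the batch term (adjusted p = 0.0456) and missed it with the share of pieces as a covariate (adjusted p = 0.0541).

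Lbp, the secreted protein that carries bacterial lipopolysaccharide to CD14, was also higher (chr2:158306493-158332852). It was at 42.5, 33.5 and 35.99 FPKM at 200 µg, against 7.23, 14.2 and 7.42 FPKM at 50 µg. Here too the groups did not overlap, and the 100 µg libraries, at 35.7, 27.0 and 24.5 FPKM, were nearer to 200 µg. The log2 fold change was 1.91 (SE 0.26, adjusted p = 0.0158). Without 200 µg replicate 1 the adjusted p of Lbp was 0.0864 and without 200 µg replicate 2 it was 0.0673.

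Csn3, which encodes the milk protein kappa-casein, had the largest fold upward among called genes eligible for naming, and a wide spread. It was at 46.6, 68.7 and 16.4 FPKM at 200 µg and at 5.42, 6.33 and 4.37 FPKM at 50 µg. The fold of Csn3 was 2.61 on the log2 scale (SE 0.52, adjusted p = 0.0449). Replicate 3 at 200 µg was well under its mates but still over every 50 µg library. Dmrta1, a DMRT-family transcription factor, was at 10.5, 13.2 and 7.22 FPKM at 200 µg, against 1.71, 2.11 and 2.21 FPKM at 50 µg (log2 fold change 1.88, SE 0.25, adjusted p = 0.0144). Cavin2, a coat protein of caveolae, was at 7.59, 7.08 and 2.96 FPKM at 200 µg, against 0.261, 1.05 and 1.16 FPKM at 50 µg (log2 fold change 1.87, SE 0.39, adjusted p = 0.0491). Both genes had their 200 µg libraries above all 50 µg libraries. In the fit without 200 µg replicate 1 the adjusted p was 0.160 for Csn3, 0.0726 for Dmrta1 and 0.172 for Cavin2.

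**Figure D3:**
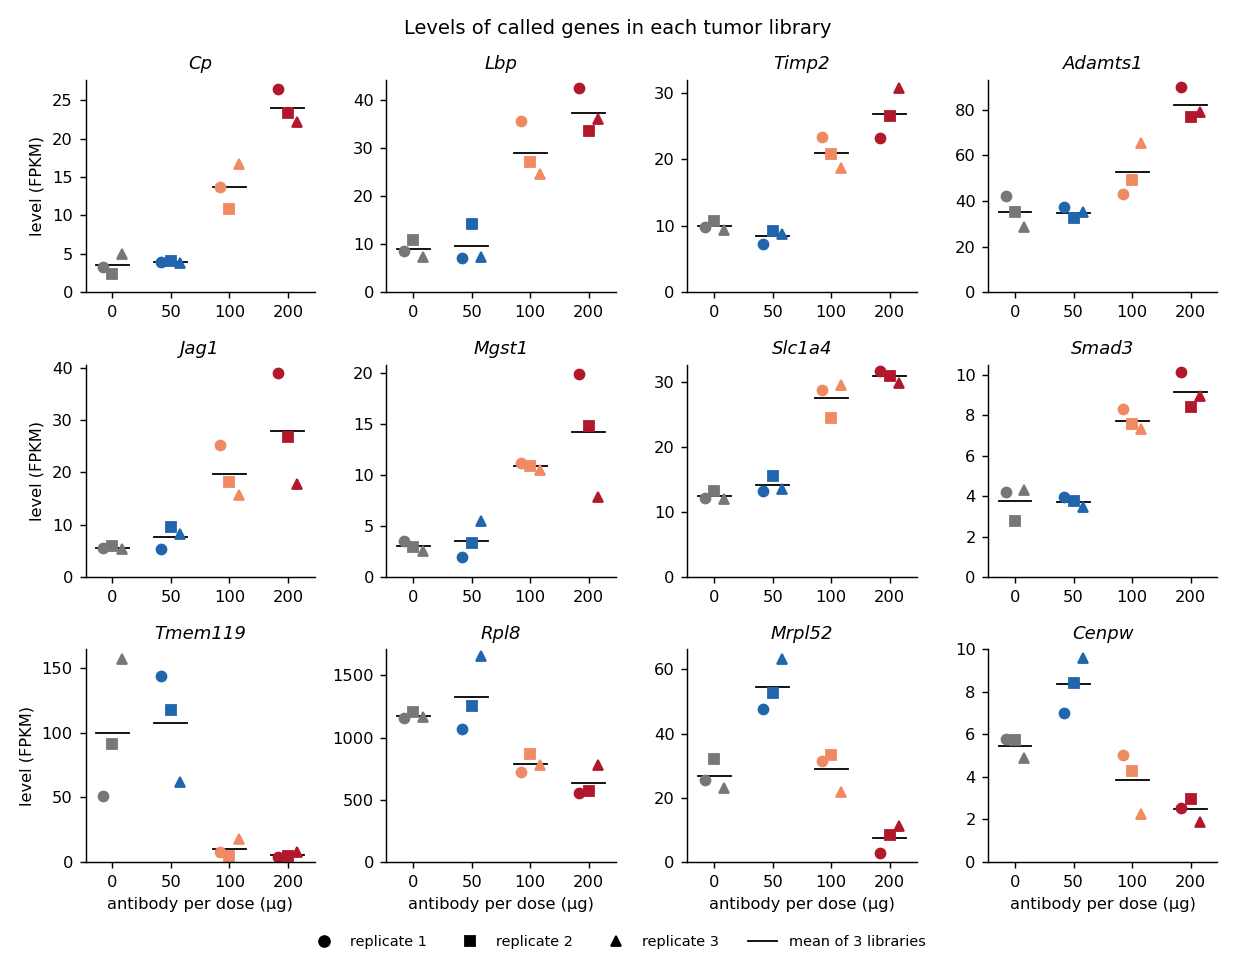
Level in every tumor library (FPKM) of 12 called genes against antibody per dose (µg, with untreated tumors at 0), each point a library and each bar the mean of 3. In every panel the 200 µg libraries lie on one side of all 50 µg libraries, and Tmem119 is at 4.83 to 17.8 FPKM at 100 µg as well.

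Peg13, an imprinted noncoding RNA, was at 40.4, 46.6 and 46.7 FPKM at 200 µg, against 15.7, 22.7 and 7.79 FPKM at 50 µg. The groups did not overlap (log2 fold change 1.59, SE 0.32, adjusted p = 0.0491), and the adjusted p was 0.524 with the share of pieces as a covariate. Slc27a6, of the fatty acid transport protein family, was at 18.7, 15.5 and 16.6 FPKM at 200 µg and at 2.83, 6.72 and 6.57 FPKM at 50 µg (log2 fold change 1.56, SE 0.27, adjusted p = 0.0317). Its groups did not overlap either. Leaving out 200 µg replicate 1 gave an adjusted p of 0.152 for Peg13 and 0.140 for Slc27a6.

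Proteases and inhibitors of the extracellular matrix held more called genes than any other list, 4 of the 16 tested members, all higher. Over all tested genes 0.990% were called higher. For 9 members every 200 µg library was above every 50 µg library, and for 1 below, against 20.2 and 9.32% of all tested genes. The list's median log2 fold change was 0.58, against 0.09 over all tested genes, and 0.46 to 1.07 in the other settings. Besides Timp2 the called members were Timp3, Mmp12 and Adamts1. Adamts1, a secreted protease that cleaves the matrix proteoglycan versican, was at 90.1, 76.8 and 79.2 FPKM at 200 µg and at 37.3, 32.4 and 35.2 FPKM at 50 µg. The groups were well apart (log2 fold change 1.21, SE 0.19, adjusted p = 0.0268), and untreated tumors had 42.0, 35.4 and 28.8 FPKM. Timp3, the inhibitor that stays bound to matrix, was at 28.9, 32.0 and 38.7 FPKM at 200 µg and at 15.8, 13.1 and 8.38 FPKM at 50 µg (log2 fold change 1.38, SE 0.23, adjusted p = 0.0308). Mmp12, the macrophage elastase, was at 5.21, 4.04 and 3.07 FPKM at 200 µg, against 0.416, 0.713 and 1.08 FPKM at 50 µg (log2 fold change 1.55, SE 0.23, adjusted p = 0.0237). Neither gene's groups overlapped, but the exons of both overlap another annotated gene. Without 200 µg replicate 1 the adjusted p was 0.127 for Adamts1, 0.112 for Timp3 and 0.107 for Mmp12. The gelatinase Mmp2 was at 20.7, 23.98 and 32.8 FPKM at 200 µg, against 12.3, 15.8 and 7.87 FPKM at 50 µg, without passing the test (adjusted p = 0.102). Timp1, the inducible inhibitor, pointed the other way with 59.5, 60.04 and 72.2 FPKM at 200 µg, against 89.2, 99.7 and 130 FPKM at 50 µg (log2 fold change −0.71, adjusted p = 0.163).

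Thbs2 encodes thrombospondin 2, a matrix protein that restrains vessel growth. It was at 82.2, 94.2 and 75.6 FPKM at 200 µg and at 30.6, 29.7 and 20.9 FPKM at 50 µg, with untreated tumors at 37.3, 30.8 and 28.01 FPKM. All 200 µg libraries were above all others of the 12 (log2 fold change 1.61, SE 0.20, adjusted p = 0.0107). Without 200 µg replicate 1 or 2 the adjusted p of Thbs2 was 0.0601 and 0.0644. Of the 21 tested collagens, laminins and basement membrane genes 1 was called, Lamb2, a laminin chain, at 7.35, 10.2 and 7.06 FPKM at 200 µg and 3.46, 3.89 and 1.42 FPKM at 50 µg (adjusted p = 0.0492, and 0.163 without 200 µg replicate 2). The list's median was 0.35, with 17 members positive, and it was −0.18 when genes were quantified by a plain FPKM sum. Of the 19 tested genes of mesenchymal transition and invasion none was called, and the median was 0.33, or −0.04 by agent tag.

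Meningeal fibroblast markers, which share matrix genes with those lists, summed to 21.1 to 29.1 FPKM at 200 µg and 10.8 to 19.9 FPKM at 50 µg, with Ogn and Slc22a6 at 0 in all 6 libraries. Pericyte and smooth muscle markers summed to 48.1 to 148 FPKM at 200 µg and 29.2 to 89.6 FPKM at 50 µg. Their part in the matrix results was not tested.

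A further list held ligands other than VEGF that are known to grow vessels, or to stand in for VEGF. It also held the receptors Met, Pdgfra, Igf1r and Axl. Of its 17 tested genes 3 were called, all ligands and all higher, where 0.990% of all tested genes were called higher. The list's median was 0.48, within 0.35 to 0.66 in every other setting. Of the 17 members 16 were positive, against 58.1% of all tested genes. Fgf1, a fibroblast growth factor that binds all FGF receptors, was at 3.30, 2.43 and 1.96 FPKM at 200 µg and at 0, 0.809 and 0.338 FPKM at 50 µg (log2 fold change 1.39, adjusted p = 0.0259). Areg, an EGF receptor ligand, was at 8.38, 6.68 and 9.11 FPKM at 200 µg and at 2.89, 1.66 and 3.84 FPKM at 50 µg (log2 fold change 1.29, adjusted p = 0.0454). Bdnf, the TrkB ligand, was at 2.91, 3.31 and 1.65 FPKM at 200 µg and at 0.522, 0.639 and 0.723 FPKM at 50 µg (log2 fold change 1.13, adjusted p = 0.0441). The groups overlapped for none of them, though all 3 were low in the 50 µg tumors, Fgf1 was listed at 0 in 50 µg replicate 1, and the exons of Bdnf overlap another annotated gene. In the fit without 200 µg replicate 1 the adjusted p was 0.122 for Fgf1, 0.158 for Areg and 0.162 for Bdnf. Areg and Bdnf each lost their call in the fits without 10 of the 12 libraries, taken out singly.

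The genes of VEGF signaling itself did not pass the test. Vegfa was at 51.9, 43.8 and 49.7 FPKM at 200 µg and at 58.2, 68.1 and 25.3 FPKM at 50 µg, and the groups overlapped (log2 fold change 0.05, SE 0.37, adjusted p = 0.951). Pgf, placental growth factor, was at 2.68, 4.32 and 2.34 FPKM at 200 µg and at 6.98, 3.50 and 3.67 FPKM at 50 µg (log2 fold change −0.45, adjusted p = 0.408). Vegfb was at 8.14, 13.8 and 11.4 FPKM at 200 µg and at 14.3, 23.01 and 10.2 FPKM at 50 µg (adjusted p = 0.370), from transcripts joined to a neighboring gene. Both ligands overlapped between doses. The receptor Flt1 was at 5.29, 4.37 and 3.93 FPKM at 200 µg and at 4.78, 3.94 and 5.06 FPKM at 50 µg (log2 fold change −0.02, adjusted p = 0.966). Kdr was at 2.70, 1.78 and 0.666 FPKM at 200 µg and at 1.37, 1.51 and 1.76 FPKM at 50 µg (log2 fold change 0.02, adjusted p = 0.982). Neither receptor showed a difference beyond its spread. The co-receptor Nrp1 was at 2.36, 1.63 and 1.91 FPKM at 200 µg and at 1.11, 1.06 and 1.93 FPKM at 50 µg (adjusted p = 0.368). Nrp2, which also serves semaphorins and VEGF-C, was at 11.7, 9.15 and 10.9 FPKM at 200 µg and at 4.67, 6.01 and 4.88 FPKM at 50 µg. Its groups did not overlap and it missed the threshold (log2 fold change 0.90, SE 0.19, adjusted p = 0.0540). Vegfc, Vegfd and Flt4 averaged under 1 FPKM and were not tested.

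Markers of endothelial cells, the targets of VEGF-A, showed no common direction. None of the 18 tested was called, 7 were positive and 11 negative, and the median of −0.13 lay between −0.29 and 0.18 in other settings. Their summed level was 75.4 to 126 FPKM at 200 µg and 91.6 to 130 FPKM at 50 µg. Of the 16 tested angiopoietin, Tie and tip cell genes none was called, with a median of −0.33. Of the 11 tested blood-brain barrier genes none was called either. That list's median was 0.71, but −0.26 by a plain FPKM sum and 0.07 with the batch term.

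In Notch signaling, which VEGF drives in sprouting vessels, 1 of 15 tested genes was called. Jag1, a Notch ligand that favors sprouting in mouse retina (chr2:137081456-137116644), was at 39.0, 26.7 and 17.8 FPKM at 200 µg and at 5.28, 9.63 and 8.18 FPKM at 50 µg. The groups did not overlap, and untreated tumors, at 5.66, 5.96 and 5.33 FPKM, lay with the 50 µg ones (log2 fold change 1.70, SE 0.29, adjusted p = 0.0317). Without 200 µg replicate 1 it was 0.127. The list's median was 0.59, and 0.30 to 0.92 in other settings. By library the doses overlapped. Relative to the 50 µg means, the list's median was 0.76, 0.84 and −0.19 at 200 µg and −0.06, 0.30 and −0.28 at 50 µg. Hes1, a Notch target, was at 10.3, 14.0 and 12.99 FPKM at 200 µg and at 2.91, 7.68 and 7.82 FPKM at 50 µg, short of the threshold (adjusted p = 0.150). Dll4, the tip cell ligand, was at 2.95, 2.09 and 0.249 FPKM at 200 µg and at 1.91, 1.77 and 2.95 FPKM at 50 µg (adjusted p = 0.587). Both were named after their values were seen.

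Spry4, a feedback inhibitor of receptor tyrosine kinase signaling, was at 57.6, 67.7 and 43.1 FPKM at 200 µg and at 12.4, 23.2 and 19.7 FPKM at 50 µg, with no overlap (log2 fold change 1.58, SE 0.30, adjusted p = 0.0389, and 0.152 without 200 µg replicate 1). Smad3, which carries TGF-β signals to the nucleus, was the called gene among 17 tested genes of TGF-β signaling. It was at 10.1, 8.39 and 8.97 FPKM at 200 µg and at 3.97, 3.74 and 3.46 FPKM at 50 µg, a narrow spread in both groups (log2 fold change 1.10, SE 0.17, adjusted p = 0.0237, and 0.113 without 200 µg replicate 1). Over the TGF-β list the median was 0.33, and 0.00 with the share of pieces as a covariate.

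Iron handling, the list that holds Cp, had 2 called genes of 15 tested, both higher, against 0.990% of all tested genes. The other was Trf, transferrin, at 474, 405 and 166 FPKM at 200 µg and at 74.1, 134 and 54.8 FPKM at 50 µg (log2 fold change 1.94, adjusted p = 0.0491, and 0.172 without 200 µg replicate 1). The Trf groups did not overlap, but its transcripts were joined to a neighboring gene and it has near-identical copies. The heavy ferritin chain Fth1 was at 455, 503 and 542 FPKM at 200 µg and at 116, 367 and 265 FPKM at 50 µg without passing the test (adjusted p = 0.202), and the transferrin receptor Tfrc was at 10.6, 11.2 and 13.7 FPKM at 200 µg and at 14.6, 11.7 and 19.1 FPKM at 50 µg (adjusted p = 0.583). These 2 genes were named after their values were seen. Over the iron list the median was 0.53, and 0.07 with the batch term.

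Among 13 tested acute phase and endotoxin sensing genes, Lbp was the called one, and the median was 0.44, or −0.08 with the batch term. Cd24a, a don't-eat-me signal on tumor cells, was the called gene of 10 tested checkpoint genes. It was at 3.29, 2.71 and 2.88 FPKM at 200 µg and at 1.09, 0.464 and 0.627 FPKM at 50 µg (log2 fold change 1.21, adjusted p = 0.0259, and 0.125 without 200 µg replicate 1).

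Genes of cystine uptake, transsulfuration and glutathione, the main thiol antioxidant, had 2 called members of 17 tested, both higher, against 0.990% of all tested genes. The median was 0.72, the largest of the plotted lists, with 0.45 to 0.94 in other settings. The list was split, with 12 members positive and 5 negative, of which 9 and 2 had an unadjusted p under 0.05. For 8 members every 200 µg library was above every 50 µg library, and for 3 below, against 20.2 and 9.32% of all tested genes. Mgst1, a membrane glutathione transferase, was at 19.9, 14.8 and 7.83 FPKM at 200 µg and at 1.95, 3.33 and 5.46 FPKM at 50 µg (log2 fold change 1.71, SE 0.33, adjusted p = 0.0389). Gstm1, a soluble glutathione transferase, was at 17.9, 12.7 and 10.03 FPKM at 200 µg and at 2.43, 4.97 and 4.01 FPKM at 50 µg (log2 fold change 1.60, SE 0.31, adjusted p = 0.0421). For both, every 200 µg library was above every 50 µg library. Leaving out 200 µg replicate 1 gave an adjusted p of 0.152 for Mgst1 and 0.158 for Gstm1. Named after their values were seen, Gclc, the catalytic subunit of the first enzyme of glutathione synthesis, was at 20.5, 16.8 and 12.3 FPKM at 200 µg and at 6.90, 9.62 and 8.24 FPKM at 50 µg (adjusted p = 0.0698), and the transsulfuration enzyme Cth was at 21.95, 16.1 and 13.6 FPKM at 200 µg and at 5.96, 9.60 and 10.3 FPKM at 50 µg (adjusted p = 0.0807). The list of NRF2 and antioxidant enzymes had a median of 0.14, and its called member was lower. This was Sod1, the cytosolic superoxide dismutase, at 4.01, 7.71 and 14.4 FPKM at 200 µg and 33.7, 51.4 and 58.0 FPKM at 50 µg (log2 fold change −2.44, adjusted p = 0.0237, and 0.0929 without 200 µg replicate 2), from transcripts joined to a neighboring gene.

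Of 17 tested amino acid transporters 1 was called, Slc1a4, which exchanges alanine, serine, cysteine and threonine across the membrane (chr11:20302180-20332713). Slc1a4 was at 31.7, 30.9 and 29.9 FPKM at 200 µg and at 13.2, 15.6 and 13.6 FPKM at 50 µg. The 200 µg libraries were within 2 FPKM of each other and the 50 µg tumors resembled untreated ones, at 12.1, 13.2 and 11.9 FPKM. The 100 µg libraries, at 28.7, 24.4 and 29.5 FPKM, were near the 200 µg level. The log2 fold change was 1.07 (SE 0.14, adjusted p = 0.0144, 0.0731 without 200 µg replicate 1 and 0.0673 without 200 µg replicate 2).

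Slc1a4 belongs to the genes that the transcription factor ATF4 switches on when amino acids run short, through a composite element with the letters TGATGNAA. None of the 19 tested genes of the ATF4 and integrated stress response list was called. Their median was 0.42, within 0.29 to 0.55 in every other setting, and 17 of the 19 were positive, against 58.1% of all tested genes. For 8 of them every 200 µg library was above every 50 µg library, as it was for 20.2% of all tested genes. Vldlr, a lipoprotein receptor induced by ATF4, was at 11.3, 10.7 and 12.2 FPKM at 200 µg and at 3.66, 6.96 and 4.84 FPKM at 50 µg (log2 fold change 1.05, adjusted p = 0.0547). Chac1, which degrades glutathione, was at 36.8, 27.6 and 24.3 FPKM at 200 µg and at 7.69, 22.1 and 12.1 FPKM at 50 µg (log2 fold change 1.12, adjusted p = 0.112). Both had their 200 µg libraries above all 50 µg libraries, without passing the test. Asns, asparagine synthetase, was at 75.4, 75.7 and 95.0 FPKM at 200 µg and at 49.8, 61.4 and 42.7 FPKM at 50 µg (adjusted p = 0.0800). Trib3, a pseudokinase that dampens ATF4, pointed the other way with 60.5, 69.4 and 129 FPKM at 200 µg and 105, 141 and 105 FPKM at 50 µg (log2 fold change −0.50, adjusted p = 0.321). Among other lists of amino acid use, the median was 0.15 over 20 cytosolic aminoacyl-tRNA synthetases and −0.02 over 16 mitochondrial ones. It was −0.06 over 18 genes of serine, one-carbon, asparagine and proline synthesis. No gene was called in any of these lists.

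Some of the promoter windows that hold the element are shown, because Slc1a4, the called transporter, carries it at its start site. They are 30 bases each, 5′ to 3′ on the gene's strand, from RefSeq on GRCm38.p6, and the capitals mark TGATGNAA or its reverse complement TTNCATCA. All but the first were chosen after the values were seen.
Slc1a4: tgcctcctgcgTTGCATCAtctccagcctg
Vldlr: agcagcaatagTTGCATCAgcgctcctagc
Asns: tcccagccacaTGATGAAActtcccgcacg
Chac1: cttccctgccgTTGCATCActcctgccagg
Slc7a11: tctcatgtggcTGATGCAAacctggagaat

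The windows lie at chr11:20332699-20332728 (minus strand) for Slc1a4, chr19:27216809-27216838 (plus) for Vldlr, chr6:7693214-7693243 (minus) for Asns, chr2:119351038-119351067 (plus) for Chac1 and chr3:50443661-50443690 (minus) for Slc7a11, the cystine transporter. The first base of the motif was at position −4 from the start site of Slc1a4, −200 of Vldlr, −23 of Asns, −193 of Chac1 and −66 of Slc7a11. Slc7a11 was at 7.77, 4.21 and 4.53 FPKM at 200 µg and at 1.496, 2.39 and 3.96 FPKM at 50 µg (adjusted p = 0.144). Over the 300 bases around the start site the motif, on either strand, was present in 3.97% of 32851 promoters in the RefSeq table. It was present in 6 of 17 stress response genes with a promoter there (35.3%), 3 of 14 transporters (21.4%) and 5 of 12 cytosolic tRNA synthetases (41.7%), but in 0 of 13 mitochondrial tRNA synthetases and 2 of 13 genes of serine, one-carbon, asparagine and proline synthesis (15.4%). Trib3, and Slc7a7, a transporter with a log2 fold change of −0.06, carry it as well. So do Tars, Aars, Yars and Gars, with log2 fold changes of 0.06, 0.09, 0.29 and 0.37. It is also present at Atf3, Iars, Pycr1 and Nupr1, with 0.44, 0.50, 0.52 and 0.98. None of these genes was called, and their windows are not shown. The list shares count genes with the motif in any of their promoters, while the 3.97% counts single promoters, so the units differ. The stress response list was drawn up around ATF4, so its share describes the list and not these tumors.

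Among called genes whose value was not uncertain, the largest fold downward was in Tmem119, a surface protein used to mark resident microglia (chr5:113793729-113800516). It was at 3.95, 4.33 and 7.42 FPKM at 200 µg and at 144, 118 and 61.6 FPKM at 50 µg. No 200 µg library came near a 50 µg one, and untreated tumors had 51.2, 91.0 and 157 FPKM. The 100 µg libraries, at 7.997, 4.83 and 17.8 FPKM, lay with the 200 µg ones, including both whose assemblies were like those at 50 µg. The log2 fold change was −4.08 (SE 0.51, adjusted p = 0.0110). It kept its call in all 17 other settings, among them the share of pieces as a covariate (adjusted p = 0.0118) and the batch term (0.0424), and the exceptions were the fits without 200 µg replicate 1 (0.0601) and without 200 µg replicate 2 (0.0644).

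Of the 8 tested microglial markers, Tmem119 was the called one, and the median of −0.21 lay between −0.57 with the batch term and 0.05 over genes in 1 piece, the one setting where it was positive. The summed level of the 12 markers was 41.3 to 66.8 FPKM at 200 µg and 129 to 202 FPKM at 50 µg, and without Tmem119 it was 33.9 to 62.8 FPKM at 200 µg and 51.9 to 67.9 FPKM at 50 µg, which overlap. Monocyte and macrophage markers summed to 823 to 1032 FPKM at 200 µg and 664 to 854 FPKM at 50 µg, with none of 21 tested genes called and a median of −0.01.

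Antigen presentation leaned downward without a call. Of 15 tested MHC class I and immunoproteasome genes 14 were negative, against 41.6% of all tested genes. At an unadjusted p under 0.05 there were 6 negative ones, against 6.94% of all tested genes. For 3 every 200 µg library was below every 50 µg library, as it was for 9.32% of all tested genes. The median was −0.37, within −0.50 to −0.28 in every other setting, and 9 of the 15 genes were uncertain. Of 8 tested MHC class II genes 7 were negative. H2-Ab1, a class II chain, was at 36.2, 41.8 and 39.8 FPKM at 200 µg and at 104, 104 and 120 FPKM at 50 µg, with untreated tumors at 175, 76.9 and 246 FPKM. Its doses did not overlap, and it missed the threshold (log2 fold change −1.45, SE 0.37, adjusted p = 0.0733). The class II median was −0.34, and 0.03 with the share of pieces as a covariate. No call was made among 24 tested interferon response genes (median 0.14, −0.39 to 0.34 in other settings), 19 chemokine genes (median −0.24, −0.72 to 0.03) or 8 T and NK cell markers (median −0.27, −0.62 to 0.06). T and NK cell markers summed to 13.2 to 46.2 FPKM at 200 µg and 22.99 to 49.8 FPKM at 50 µg.

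Ribosomes and mitochondria leaned downward too. Of 43 tested cytosolic ribosomal protein genes 40 were negative, against 41.6% of all tested genes. For 17 every 200 µg library was below every 50 µg library, as it was for 9.32% of all tested genes. The median was −0.65, within −0.77 to −0.30 in every other setting. The called one was Rpl8, at 553, 570 and 781 FPKM at 200 µg and 1072, 1257 and 1655 FPKM at 50 µg, with no overlap (log2 fold change −1.06, SE 0.20, adjusted p = 0.0367, and 0.152 without 200 µg replicate 1). Most of these genes, 31 of 43, were uncertain, since ribosomal protein genes have near-identical copies. Their median exonic length was 1770 bases, and the list's median was −0.70 with the length trend removed. Gar1, a subunit of the particle that modifies ribosomal RNA, was at 23.6, 20.3 and 19.2 FPKM at 200 µg and at 54.1, 55.2 and 44.8 FPKM at 50 µg (log2 fold change −1.25, SE 0.24, adjusted p = 0.0380, and 0.138 without 200 µg replicate 1).

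Of 33 tested mitochondrial ribosomal protein genes, 24 had negative values. The list's median was −0.38, and −0.01 with the share of pieces as a covariate. The called member was Mrps28, of the small subunit, at 3.98, 3.24 and 4.42 FPKM at 200 µg and 19.02, 40.9 and 62.9 FPKM at 50 µg (log2 fold change −2.96, adjusted p = 0.0107, and 0.0627 without 200 µg replicate 2), from transcripts joined to a neighboring gene. Mrpl52, a protein of the large mitochondrial subunit outside that list, was at 2.78, 8.52 and 11.3 FPKM at 200 µg and at 47.7, 52.5 and 63.2 FPKM at 50 µg. The doses were far apart, and the 100 µg and untreated tumors lay between them at 21.9 to 33.4 and 23.1 to 32.1 FPKM. Its fold was −2.85 on the log2 scale (SE 0.37, adjusted p = 0.0144, and 0.0556 without 200 µg replicate 2). Mtfp1, a protein of mitochondrial fission, was at 2.66, 2.55 and 1.89 FPKM at 200 µg and at 5.90, 5.23 and 4.90 FPKM at 50 µg (log2 fold change −0.92, SE 0.19, adjusted p = 0.0491, and 0.152 without 200 µg replicate 1).

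Respiratory chain genes gave no call. Negative values were found for 20 of 27 tested complex I genes, whose median was −0.39, and for 24 of 36 genes of complexes II to V, whose median was −0.23. Complex I reached 0.03 and 0.02 with the share of pieces as a covariate and with the batch term, and complexes II to V −0.04 and −0.05. Ndufa1, of complex I, was at 10.004, 9.47 and 11.2 FPKM at 200 µg and at 69.7, 123 and 49.8 FPKM at 50 µg (adjusted p = 0.09996). It was also at 8.52 FPKM in 100 µg replicate 3, against 73.5 and 146 FPKM in the other 100 µg libraries. That library is a 100 µg one by title and a 200 µg one by agent tag. Genes encoded in mitochondrial DNA were nearly unlisted, summing to 0 to 0.480 FPKM at 200 µg and 2.89 to 13.9 FPKM at 50 µg, with 7 of 13 at 0 in all 6 libraries. Long nuclear RNAs and snoRNA hosts, a sign of how much nuclear RNA a library holds, summed to 291 to 344 FPKM at 200 µg and 398 to 596 FPKM at 50 µg. The part of these measures in the mitochondrial and ribosomal results was not tested.

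Genes of DNA replication and nucleotide supply were negative for 23 of 28 tested, against 41.6% of all tested genes. None was called, and the median was −0.40, within −0.63 to −0.15 in every other setting. Gins1, of the replicative helicase complex, was at 7.69, 6.98 and 5.09 FPKM at 200 µg and at 13.4, 11.7 and 16.5 FPKM at 50 µg (adjusted p = 0.0934), and Tyms, thymidylate synthase, was at 2.65, 2.17 and 1.77 FPKM at 200 µg and at 3.58, 4.65 and 7.34 FPKM at 50 µg (adjusted p = 0.0834). Neither overlapped between the doses or passed the test. Cenpw, a centromere protein, was lower by the test, at 2.54, 2.98 and 1.90 FPKM at 200 µg and 7.02, 8.42 and 9.61 FPKM at 50 µg (log2 fold change −1.43, SE 0.23, adjusted p = 0.0288, and 0.119 without 200 µg replicate 1). The mitosis list had 11 of 26 tested genes positive, 15 negative, no call and a median of −0.05 that was 0.30 without 200 µg replicate 3. Ccnd2, cyclin D2, the called one of 18 G1 cyclins and inhibitors, was higher at 116, 102 and 91.9 FPKM at 200 µg, against 40.6, 57.0 and 60.3 FPKM at 50 µg (log2 fold change 0.98, adjusted p = 0.0367, and 0.152 without 200 µg replicate 1), from transcripts joined to a neighbor.

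**Figure D4:**
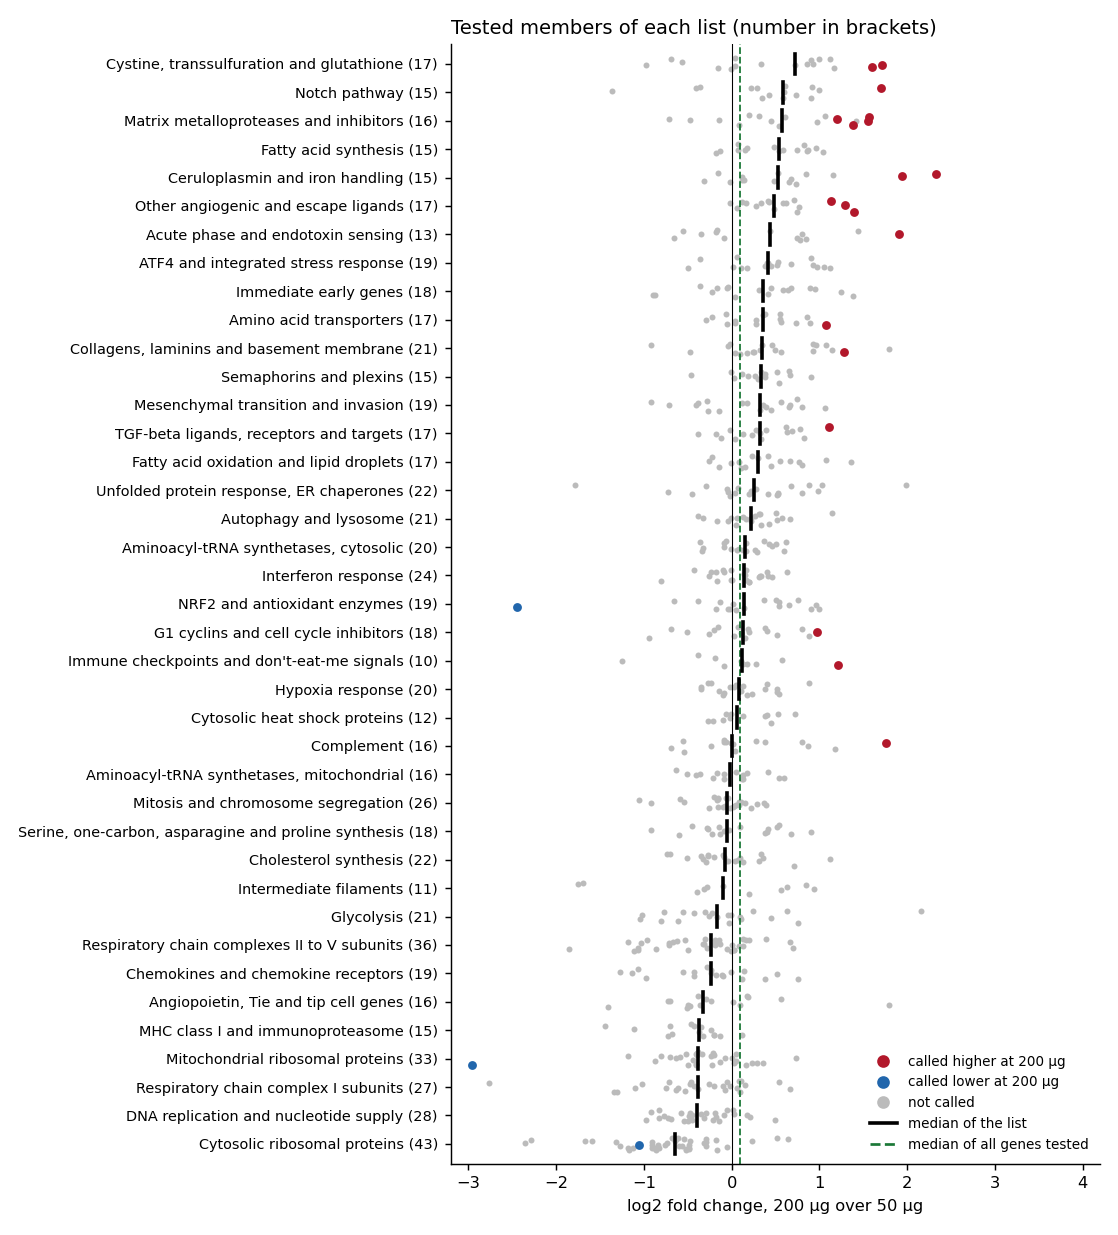
Log2 fold change of 200 over 50 µg for every tested member of the pathway lists with at least 10 tested genes (grey, called members red or blue), with a bar at each list's median and a line at the median of all tested genes, 0.09. Glutathione genes have a median of 0.72 and cytosolic ribosomal proteins of −0.65.

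Oxygen and energy lists held no call. The median was 0.08 over 20 tested hypoxia response genes, with −0.25 to 0.19 in other settings, and −0.16 over 21 glycolysis genes, with −0.59 to −0.02. The hypoxia-inducible factor subunit Hif1a was at 37.0, 34.5 and 29.3 FPKM at 200 µg and at 17.7, 23.8 and 13.1 FPKM at 50 µg, from joined transcripts and short of the threshold (adjusted p = 0.118). Lipid lists held no call either. The median was 0.54 over 15 fatty acid synthesis genes, and −0.13 with the share of pieces as a covariate, 0.30 over 17 genes of fatty acid oxidation and lipid droplets, and −0.08 over 22 cholesterol synthesis genes, which had −0.82 with that covariate and −0.62 with the batch term. Acsl4, which loads long polyunsaturated fatty acids onto coenzyme A, was at 29.3, 24.2 and 21.7 FPKM at 200 µg and at 12.2, 10.1 and 12.5 FPKM at 50 µg without passing the test (log2 fold change 1.04, adjusted p = 0.0594). The groups did not overlap. The unfolded protein response list had a median of 0.25, or −0.15 with the batch term, and 21 autophagy and lysosome genes 0.22, with no call in either. The unfolded protein response list was split, from −1.78 to 1.99, with 15 of 22 tested members positive and 7 negative. Of these, 6 and 2 had an unadjusted p under 0.05 in the limma test, against 14.6 and 6.94% of all tested genes.

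Neural lineage lists gave no call. Negative values were found for 9 of 12 tested oligodendrocyte and myelin genes, whose median was −0.52, and their markers summed to 102 to 113 FPKM at 200 µg and 125 to 174 FPKM at 50 µg. Cldn11, the tight junction protein of myelin, was at 2.60, 3.59 and 2.25 FPKM at 200 µg and at 15.1, 6.59 and 6.89 FPKM at 50 µg (log2 fold change −1.39, adjusted p = 0.126). Vgf, a secreted neuropeptide precursor, was at 14.8, 15.9 and 15.3 FPKM at 200 µg and at 157, 82.3 and 47.1 FPKM at 50 µg, just short of the threshold (log2 fold change −2.40, SE 0.55, adjusted p = 0.0586). Neither gene overlapped between the doses, and 100 µg replicate 3 had 17.3 FPKM of Vgf, against 50.6 and 48.1 FPKM in its group mates. Vgf comes from the list of granins and prohormone processing and went against most of it. Of the 5 tested genes of that list 3 were positive and 2 negative, with no call. The granin list's median was 0.47, and −0.28 with the share of pieces as a covariate. Astrocyte genes had a median of 0.32 and precursor and glioma lineage genes −0.13. Astrocyte markers summed to 182 to 249 FPKM at 200 µg and 127 to 211 FPKM at 50 µg, and precursor and glioma lineage markers, present at a high level throughout, to 1122 to 1374 FPKM at 200 µg and 901 to 1612 FPKM at 50 µg. Neuron markers summed to 21.7 to 33.0 FPKM at 200 µg and 23.2 to 52.2 FPKM at 50 µg, with Rbfox3 at 0 in all 6 libraries.

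Rhd, a Rh blood group protein of red cells, was lower, at 1.58, 2.13 and 2.40 FPKM at 200 µg and 6.44, 5.90 and 5.23 FPKM at 50 µg, with no overlap (log2 fold change −1.18, SE 0.20, adjusted p = 0.0317, and 0.143 without 200 µg replicate 1). Summed red blood cell markers overlapped, with 70.8 to 218 FPKM at 200 µg and 80.4 to 214 FPKM at 50 µg in these perfused tumors.

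**Figure D5:**
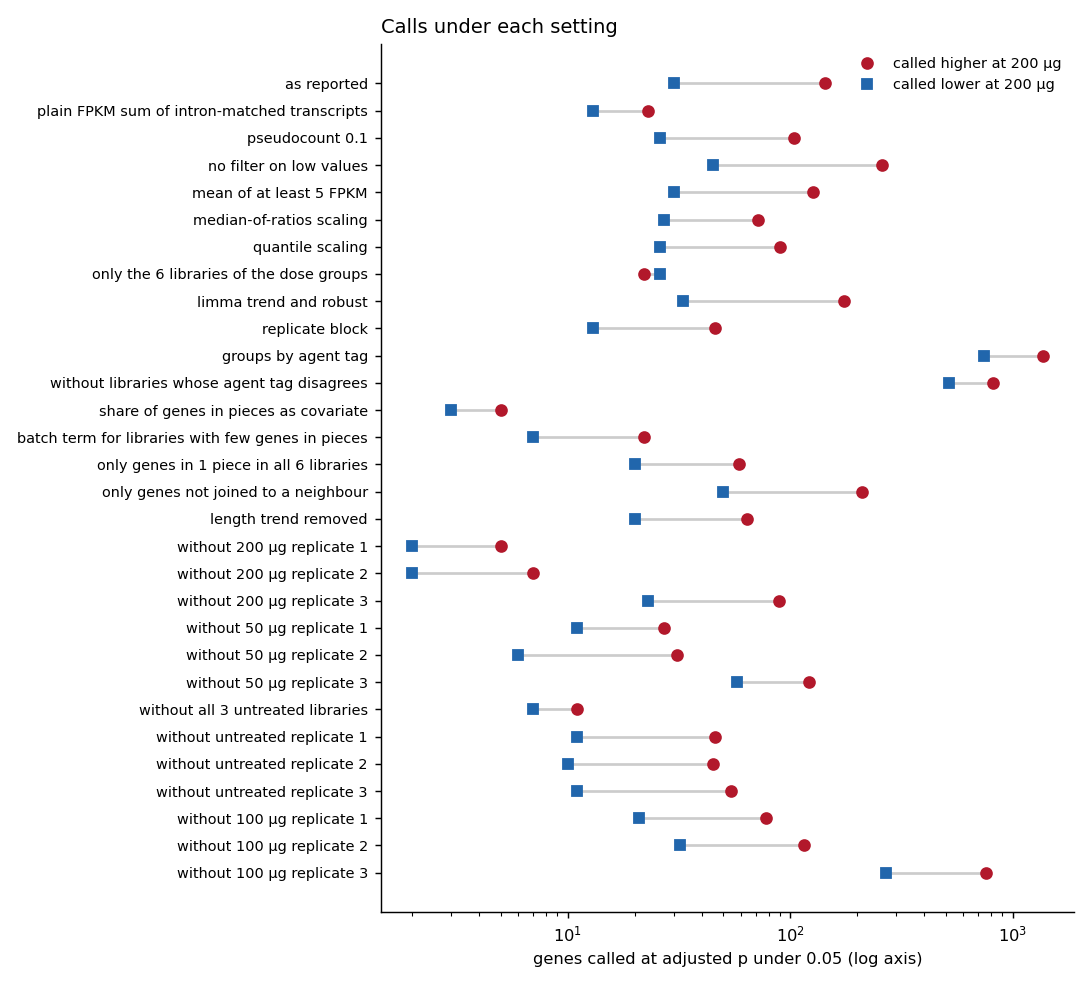
Number of genes called higher and lower at 200 µg against 50 µg under each way of processing the data and with each library left out (counts, log axis). The counts run from 7 without 200 µg replicate 1 to 2115 when groups follow the agent tag.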

How the data were processed

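RNA-seq of 15 samples was deposited as a table of assembled transcripts per library, with exon coordinates on mm10 and abundance in FPKM. Per the submitters' processing notes the authors aligned reads with STAR and assembled and quantified transcripts with Cufflinks, and the deposited FPKM values carry no gene names. Versions and options: not given in the sources used here. Tumors were perfused and flash frozen, with 1 µg of total RNA per library, per the labels' protocols. The 3 healthy brain libraries were not used.

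A gene's value was the sum, over transcripts on its GENCODE M21 exons (bedtools 2.31.1), of FPKM times the share of its exonic length covered. Single-exon transcripts under 200 bp were set aside and strand was ignored, so antisense and overlapping genes could not be told apart. Genes were uncertain where transcripts joined them to a neighbor, where exons overlapped another gene or where near-identical copies exist. A listed 0 can be a failed assembly. Each library was assembled on its own, so a gene can be whole in one and in pieces in another. FPKM is relative to the total of a library. The tables hold no read totals, so the sequence behind each library was estimated from the coverage and FPKM that its transcripts list, and no counting interval is given.

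The test was that of limma (version 3.58.1, under R 4.3.3) on log2(FPKM + 1), a scale that understates the change of low genes, over 12 tumor libraries in 4 groups. The contrast was 200 minus 50 µg, two-sided, with Benjamini-Hochberg adjustment over genes averaging at least 1 FPKM. The script was tested on simulated data. Means are not shown where library values are. Named genes were the 12 largest folds in each direction among called, certain genes with at least 5 FPKM in the higher group and no 0 (7 were eligible downward), up to 4 called members per list or, with none called, the 2 with the largest fold, and every VEGF gene. Not all genes that this rule picks from lists without a call are given in the text. Members, lists and tests were chosen with earlier results of these data known, and fits without each untreated or 100 µg library were chosen after seeing the data. A result withheld from this text is not reported here.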

Additional observations from a re-analysis of the deposited data

How the results depend on the processing

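The 173 calls (143 higher, 30 lower) kept their direction in every setting in which they could be tested, but their number moved widely. It was 36 (23 and 13) by a plain FPKM sum of intron-matched transcripts, 305 (260 and 45) with no filter on low values, 99 (72 and 27) with median-of-ratios scaling, and 116 (90 and 26) with quantile scaling. It was 48 (22 and 26) in a fit of the 6 libraries alone, 18 (11 and 7) without all 3 untreated libraries, 2115 (1369 and 746) with groups by agent tag and 1336 (816 and 520) without libraries whose tag disagreed. It was 8 (5 and 3) with the share of genes in pieces as a covariate, 29 (22 and 7) with the batch term, 79 (59 and 20) for genes in 1 piece, 260 (210 and 50) for genes not joined to a neighbor and 84 (64 and 20) with the length trend removed. The cause of these moves was not tested. Settings that drop genes also tested fewer of them, 9408 for genes in 1 piece and 7907 for genes not joined to a neighbor, against 14442. The share of higher calls was 82.7% as reported, 72.7% with median-of-ratios scaling and 77.6% with quantile scaling. Leaving out 1 library of the 2 doses gave 7 to 180 calls, 5 to 122 higher and 2 to 58 lower. Leaving out an untreated or 100 µg library gave 55 to 1031 calls, 45 to 761 higher and 10 to 270 lower. With the replicate number as a block 59 genes were called (46 and 13), of which 52 were among the 173. Same-numbered libraries of the 2 doses correlated at 0.021, −0.046 and −0.047 in their deviations from the group means, so the numbers were not taken to pair them. A pseudocount of 0.1 gave 130 calls, a minimum of 5 FPKM 157, and limma's trend and robust options 208. FPKM without read counts gives no depth per gene, so a low value cannot be told from a poorly assembled one.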

Other observations

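Several genes called higher at 200 µg lay outside the gene lists, and those given here were chosen after their values were seen. Dusp6, the phosphatase that switches off ERK, was at 170, 214 and 194 FPKM at 200 µg and at 69.9, 94.1 and 115 FPKM at 50 µg (log2 fold change 1.07, adjusted p = 0.0333, and up to 0.132 with a library left out). It stood apart between the doses like Spry4, another inhibitor of that route. Osmr, the oncostatin M receptor subunit, was at 7.46, 5.52 and 6.41 FPKM at 200 µg and at 2.16, 3.05 and 2.54 FPKM at 50 µg (log2 fold change 1.06, adjusted p = 0.0259, up to 0.125). Tm4sf1, a membrane protein of tumor cells and endothelium, was at 50.0, 58.3 and 39.8 FPKM at 200 µg and at 15.5, 15.5 and 18.7 FPKM at 50 µg (log2 fold change 1.51, adjusted p = 0.0105, up to 0.0601). In none of these genes did the doses overlap.

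Genes of cell attachment were among the calls as well. Fermt2, which activates integrins, was at 23.6, 24.4 and 19.4 FPKM at 200 µg and at 9.41, 9.49 and 10.4 FPKM at 50 µg (adjusted p = 0.0308, up to 0.140 with a library left out). Parva, an adaptor that links integrins to actin, was at 8.51, 8.73 and 7.74 FPKM at 200 µg and at 3.63, 3.44 and 3.27 FPKM at 50 µg (adjusted p = 0.0237, up to 0.106). The cell surface proteoglycan Sdc2 was at 27.8, 34.3 and 33.0 FPKM at 200 µg and at 10.9, 12.2 and 13.3 FPKM at 50 µg (adjusted p = 0.0297, up to 0.113). The doses did not overlap for any of the 3, and each missed the threshold with the share of genes in pieces as a covariate, at an adjusted p of 0.268, 0.244 and 0.255 in the same order. They are 3 genes picked by eye, and no list of attachment genes was tested. Of the remaining lists, 18 tested immediate early genes had a median of 0.36 (−0.05 without 200 µg replicate 3) and 15 semaphorins and plexins 0.34 (−0.15 with the share of genes in pieces as a covariate), with no call in either.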
